A study of Mus musculus with 18 samples.

Results

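The ADAMTS and MMP metalloproteases, the ADAMTS-like proteins and the TIMP inhibitors were described across ovary, pituitary and hypothalamus of superovulated mice. The rule for the group used gene symbols: it took every probe set of the array annotated to exactly 1 gene of a matching symbol. These symbols were Adamts or Adamtsl with a number, Mmp with a number, and Timp1 to Timp4. Measured values served only to pick the probe set of highest mean where a gene had several. The rule was set with earlier results of these data known. The group held 49 of the 22180 genes with a probe set naming 1 gene: 18 ADAMTS proteases, 5 ADAMTS-like proteins, 22 MMPs and 4 TIMPs. Adamts2 and Mmp15 had no probe set naming them alone and have no value here.

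The study asked how transport stress bears on superovulation in mice. Its animals were 10 pairs of female littermates of the strain labelled BABL/c, allotted at 6 weeks of age, 1 of each pair to control and 1 to stress, and superovulated at 9 weeks. Stressed mice were driven 1000 km, for about 10 h at a mean of 50 km/h, and brought back to the laboratory in which both groups were housed. The distance, time and speed are given as labelled, and they do not match each other if all describe 1 drive. All mice of both groups were superovulated, and neither group carried a genetic change. For each of the 3 tissues, RNA of the mouse with the most oocytes (high), of the mouse with the fewest (low) and of a pool of the other 8 mice of a treatment was put on 1 Affymetrix Mouse Gene 2.0 ST array each, 18 arrays in all. A treatment in a tissue therefore had 3 arrays, of which 2 came from single mice and 1 from pooled mice. The high and low classes were defined by each treatment's own extremes, and the labels do not tie the single mice to their littermates. Values are deposited log2 signals, and a difference of 1 log2 unit is a doubling of signal.

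ADAMTS proteases cut proteoglycans and procollagens of the extracellular matrix, and MMPs cut collagens, gelatin, laminin and many cell-surface proteins. Both are made as inactive precursors with a catalytic zinc, and TIMPs bind and block the active enzymes. At ovulation the follicle wall is opened and the versican-rich matrix between cumulus cells is formed and processed. In the mouse ovary Adamts1 is a progesterone receptor target of granulosa cells that is needed for normal ovulation. In brain, these enzymes act on perineuronal matrix, myelin and synaptic proteins.

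The genes fall into groups with different upstream sequence, and 6 promoters are shown: 4 of genes with large tissue differences, and those of Mmp13 and Mmp3 as examples of a run of neighbouring MMP genes. Each is the RefSeq window of build GRCm38.p6 from 250 bases before to 50 bases after the gene start, 300 bases, read 5′ to 3′ on the strand of the gene. Capitals mark matches, on either strand, to the GC box GGGCGG, the AP-1 site TGANTCA, the TATA box TATAAA, the orphan nuclear receptor site CAAGGTCA and the RUNX site TGTGGT. No marked matches of different motifs overlapped (0 overlapping pairs).
Adamts1, chr16:85803064-85803363, minus strand: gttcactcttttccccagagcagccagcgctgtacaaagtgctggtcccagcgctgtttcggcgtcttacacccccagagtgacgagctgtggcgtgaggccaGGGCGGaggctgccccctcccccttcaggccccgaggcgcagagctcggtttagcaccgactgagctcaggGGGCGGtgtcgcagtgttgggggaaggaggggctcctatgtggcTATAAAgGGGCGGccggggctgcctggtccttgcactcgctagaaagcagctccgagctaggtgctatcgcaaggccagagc
Mmp14, chr14:54431348-54431647, plus strand: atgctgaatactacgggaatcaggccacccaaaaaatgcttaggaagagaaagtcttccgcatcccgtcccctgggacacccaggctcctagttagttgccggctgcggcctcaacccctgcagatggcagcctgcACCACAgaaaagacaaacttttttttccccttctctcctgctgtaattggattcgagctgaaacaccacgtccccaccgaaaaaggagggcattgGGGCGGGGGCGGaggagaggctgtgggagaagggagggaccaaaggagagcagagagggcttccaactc
Timp1, chrX:20869916-20870215, plus strand: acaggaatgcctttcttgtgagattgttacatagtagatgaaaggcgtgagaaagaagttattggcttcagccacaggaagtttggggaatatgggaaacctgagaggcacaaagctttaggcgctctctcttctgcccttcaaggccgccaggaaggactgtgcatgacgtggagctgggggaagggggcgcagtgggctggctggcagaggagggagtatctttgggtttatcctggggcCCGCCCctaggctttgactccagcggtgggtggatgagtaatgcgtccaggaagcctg
Timp4, chr6:115252156-115252455, minus strand: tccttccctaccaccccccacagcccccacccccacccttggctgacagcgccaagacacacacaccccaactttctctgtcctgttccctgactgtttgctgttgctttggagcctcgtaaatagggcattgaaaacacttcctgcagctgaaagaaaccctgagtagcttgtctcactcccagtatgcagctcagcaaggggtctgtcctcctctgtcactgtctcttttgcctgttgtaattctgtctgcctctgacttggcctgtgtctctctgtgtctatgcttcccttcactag
Mmp13, chr9:7272264-7272563, plus strand: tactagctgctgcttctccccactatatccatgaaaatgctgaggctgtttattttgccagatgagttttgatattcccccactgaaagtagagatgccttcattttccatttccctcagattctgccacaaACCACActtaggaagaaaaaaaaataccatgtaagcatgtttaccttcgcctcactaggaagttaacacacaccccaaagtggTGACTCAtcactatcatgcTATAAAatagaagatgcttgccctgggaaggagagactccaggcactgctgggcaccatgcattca
Mmp3, chr9:7445572-7445871, plus strand: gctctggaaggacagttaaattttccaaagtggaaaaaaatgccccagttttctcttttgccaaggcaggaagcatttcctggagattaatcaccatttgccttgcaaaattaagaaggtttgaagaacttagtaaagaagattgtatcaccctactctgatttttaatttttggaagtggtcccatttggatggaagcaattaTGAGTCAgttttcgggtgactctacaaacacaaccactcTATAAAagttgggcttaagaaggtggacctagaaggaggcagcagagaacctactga

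Adamts1, an ovary-high protease, had 3 GC boxes and a TATA box in its window. Mmp14 had 2 GC boxes and 1 RUNX match, and Timp1 had 1 GC box. Timp4, the inhibitor that was highest in hypothalamus, had no match to any of the 5 motifs in these 300 bases. Mmp13 and Mmp3 each had 1 AP-1 match, starting 35 and 46 bases upstream of the gene start, followed by a TATA box. Of the 49 genes 34 had a RefSeq window, 37 windows in all, with a median GC content of 61% against 52.7% over all 32851 windows. The other 15, Mmp2 and Mmp19 among them, had no window in the table.

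A run of 10 MMP genes, in the order Mmp13, Mmp12, Mmp1b, Mmp3, Mmp1a, Mmp10, Mmp8, Mmp27, Mmp20 and Mmp7, are direct neighbours in the gene table, with 0 other coding genes between them. Their promoters differed from those of the other members. An AP-1 match was found in 8 of the 10 and in 0 of the 24 other members with a window, against 7.81% of all windows. A TATA box was found in 9 of the 10 and in 3 of the 24, against 13.6% of all windows. A GC box was found in 0 of the 10 and in 20 of the 24, against 35.7% of all windows. RUNX matches were in 4 of the 10 and 2 of the 24 (16.8% of all windows), and the nuclear receptor site was in 0 and 1 (1.56% of all windows). The neighbouring genes also shared a low signal: their highest tissue median was 4.75 and their highest single array 5.43. A match is a description of letters, and binding was not measured.

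The arrays matched their tissue labels. Of the ovary markers 13 of 14 were higher on every ovary array than on any other array (Amh was the exception), as were 9 of 9 pituitary markers on pituitary arrays and 9 of 10 hypothalamus markers on hypothalamus arrays (all but Gad1). Over all genes, correlations were 0.928 to 0.988 within a tissue and 0.866 to 0.955 between tissues, and the array medians lay between 4.75 and 5.03. Some pools carried markers of another tissue. On the stressed pituitary pool the linear signals of the 14 ovary markers summed to 4371, against 488 to 642 on the other pituitary arrays. On the stressed hypothalamus pool they summed to 2351, against 391 to 499 on the other hypothalamus arrays. The stressed pituitary pool also had a glia marker sum of 1907, against 616 to 1170 on the other pituitary arrays. Its median hypothalamus marker was 6.48, against 4.68 to 5.46, though the hypothalamus marker sum of 4678 lay inside the range of the others, 3463 to 5450. Pituitary markers summed to 3182 on the control ovary pool and 4602 on the stressed ovary pool, against 187 to 247 on the single-mouse ovary arrays, and to 402 to 1284 on the hypothalamus arrays. No list had a marker at 0, since the log2 table has none at that level. The labels do not say that single mice and pools are replicates of one kind, so the p-values measure the spread between these arrays. In whole tissue, fewer cells of a type and less RNA per cell cannot be told apart.

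Many members were ovarian in this series. Across the 49 genes the median level was highest in ovary for 27, in hypothalamus for 14 and in pituitary for 8. The shares of all genes highest in each tissue were not counted, so this split cannot be called unusual. All 6 ovary arrays lay above all 12 other arrays for 15 members, against 8.64% of all genes, and all hypothalamus arrays did so for 6 members, against 8.76% of all genes. No member (0) had all pituitary arrays above the other tissues, against 3.11% of all genes. Signal in every tissue was below the median gene (5.59) for 22 members, and the table has no detection call for them. The share of all genes for which this holds was not counted. The plot of medians and ranges by tissue shows all 49.

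**Figure D1:**
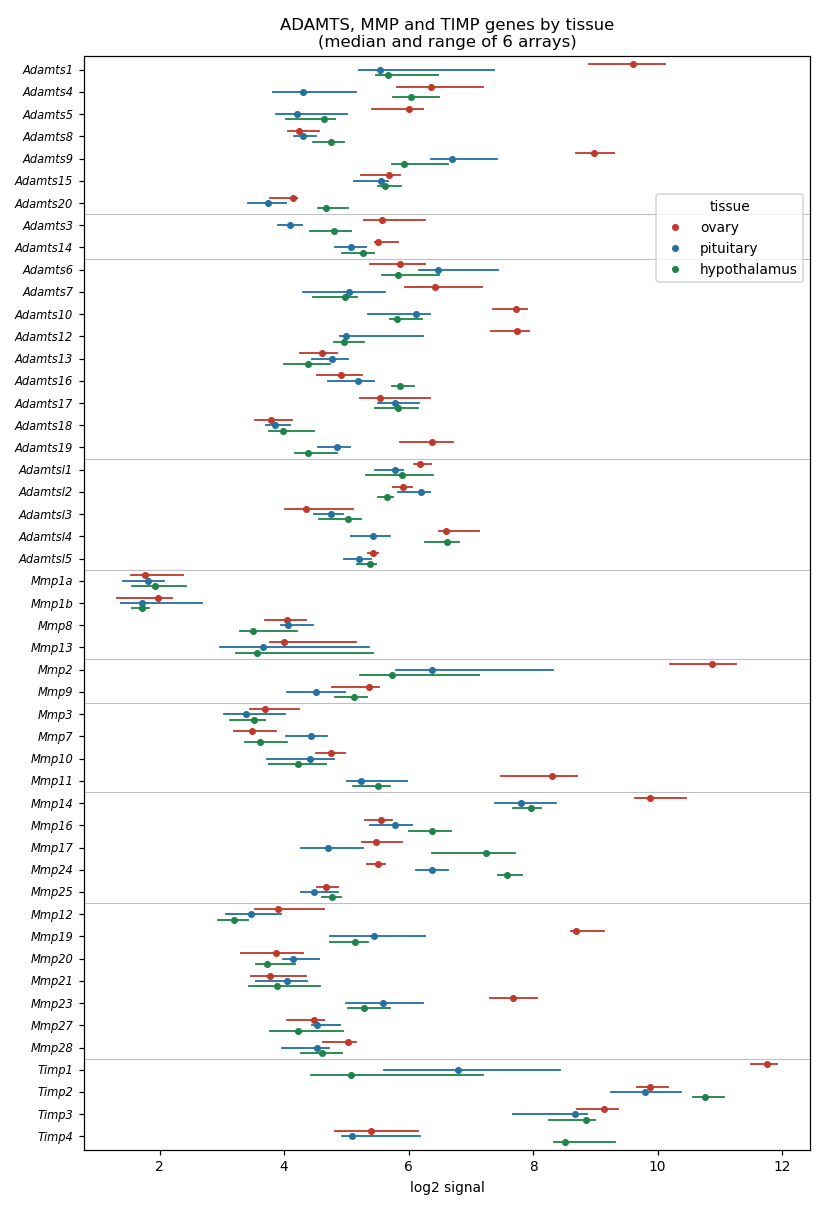
Median (point) and range (line) of the deposited log2 signal over the 6 arrays of each tissue for the 49 genes, ordered by family with lines between families. Timp1, Mmp2, Adamts1, Adamts9 and Mmp19 show ovary ranges clear of both other tissues, while Timp4, Mmp17 and Mmp24 are highest in hypothalamus.

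Among the ADAMTS proteases that cut versican and related proteoglycans, Adamts1 had the widest gap between ovary and both other tissues. Its log2 signal on the ovary arrays was lowest at 8.90, had a median of 9.60 and reached 10.13. In pituitary it ran from 5.19 to 7.38 with a median of 5.53, and in hypothalamus from 5.48 to 6.47 with a median of 5.66. No ovary array overlapped any other array, and the highest pituitary and hypothalamus arrays were the stressed pools. Ovary exceeded hypothalamus by 3.76 (SE 0.25) on the log2 scale and pituitary by 3.79 (SE 0.25), 13.5-fold and 13.8-fold, with adjusted p of 2.29e-10 and 4.75e-10 in limma. The 2 differences share the ovary arrays and are given side by side.

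Adamts9, a protease of versican and aggrecan, followed the same order with a smaller gap. Its ovary arrays ran from 8.69 to 9.30 (median 8.98), its pituitary arrays from 6.36 to 7.42 (median 6.70) and its hypothalamus arrays from 5.73 to 6.64 (median 5.92). All 3 tissues differed: ovary was higher than hypothalamus by 2.99 and than pituitary by 2.22, and hypothalamus was lower than pituitary by a difference of -0.77 (limma, adjusted p = 2.7e-04). Adamts5, the aggrecanase that is the direct genomic neighbour of Adamts1, was also set apart in ovary, at 5.41 to 6.23 against 3.86 to 5.01 in pituitary and 4.03 to 4.82 in hypothalamus. It was higher in ovary by 1.37 and 1.61 against hypothalamus and pituitary.

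Adamts4, another aggrecanase, did not separate ovary from hypothalamus. Its medians were 6.36 in ovary, 6.03 in hypothalamus and 4.30 in pituitary, and all pituitary arrays lay below all others. Hypothalamus exceeded pituitary by 1.72 (limma, adjusted p = 1.58e-06). Within ovary both pools (7.20 and 7.19) lay above the 4 single mice, which ran from 5.82 to 6.51. The remaining proteases of this kind were Adamts20, higher in hypothalamus than in pituitary by 1.02 and than in ovary (difference of ovary from hypothalamus -0.70), Adamts8, with hypothalamus medians of 4.75 against 4.24 in ovary and 4.30 in pituitary, and Adamts15, whose medians of 5.68, 5.56 and 5.61 did not pass in any pair.

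The procollagen N-proteinases trim the amino end of fibrillar procollagens, and both measured ones were highest in ovary. Adamts3 arrays ran from 5.28 to 6.26 in ovary, 4.41 to 5.08 in hypothalamus and 3.89 to 4.28 in pituitary, with no overlap between any pair of tissues. Adamts14 had ovary arrays of 5.46 to 5.83, all above the other tissues, but its differences were small (0.34 from hypothalamus and 0.48 from pituitary).

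Of the other ADAMTS proteases, Adamts12, Adamts10, Adamts19 and Adamts7 had ovary arrays above all others. Adamts12, which cuts cartilage oligomeric matrix protein, ran from 7.33 to 7.94 in ovary, from 4.79 to 5.28 in hypothalamus and from 4.89 to 6.23 in pituitary, where the highest value was again the stressed pool. Ovary exceeded pituitary by 2.51 (SE 0.17; limma, adjusted p = 5.86e-10). Adamts19, an orphan protease known from ovary, ran from 5.86 to 6.71 there against 4.54 to 5.05 in pituitary and 4.18 to 4.85 in hypothalamus. Adamts10, which acts on fibrillin microfibrils, was higher in ovary by 1.80 and 1.70 against hypothalamus and pituitary. Adamts7 was higher by 3.10-fold and 2.83-fold.

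Adamts16 and Adamts6 ran the other way. Adamts16 was highest in hypothalamus, at 5.73 to 6.09, with no overlap with ovary (4.53 to 5.24) or pituitary (4.70 to 5.45). Ovary lay below hypothalamus by a log2 difference of -0.98 (limma, adjusted p = 6.5e-06). Adamts6 was highest in pituitary, with a median of 6.48 against 5.86 in ovary and 5.83 in hypothalamus, and passed against both (differences of -0.86 and -0.70 from pituitary), although its ranges overlapped. Adamts13, the von Willebrand factor protease, Adamts17 and Adamts18 had overlapping ranges in all tissues. Of their differences 1 passed, hypothalamus minus pituitary of Adamts13, at -0.37.

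The ADAMTS-like proteins lack the protease domain and bind microfibrils. Adamtsl4 had medians of 6.60 in ovary and 6.62 in hypothalamus, and all of its pituitary arrays, 5.07 to 5.70, lay below both. Adamtsl2 was lowest in hypothalamus, where every array (5.51 to 5.75) was below every other array, and hypothalamus minus pituitary was -0.50. Ovary exceeded hypothalamus by 0.26. Adamtsl3 was lower in ovary than in hypothalamus by a difference of -0.51. Adamtsl1 passed only as ovary minus pituitary (0.45), and Adamtsl5 passed in no pair.

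The gelatinase Mmp2, which cuts denatured collagen and basement membrane collagen, was high in ovary and low elsewhere. Its ovary arrays ran from 10.20 to 11.27 with a median of 10.88. Pituitary ran from 5.801 to 8.31 (median 6.38) and hypothalamus from 5.22 to 7.13 (median 5.73), with the stressed pool highest in both. Ovary exceeded hypothalamus by 4.88 (SE 0.27), 29.4-fold, and pituitary by 4.12 (SE 0.27), 17.4-fold, with adjusted p of 1.18e-11 and 3.17e-10 in limma. Hypothalamus minus pituitary was -0.76 with an adjusted p of 0.029 in limma, a call that did not hold without the block for animal (adjusted p = 0.127), or with array weights (0.0511). It was also lost, at adjusted p of 0.0528 to 0.11, when any 1 of 6 arrays was left out: the high or low mouse of either treatment in hypothalamus, or either pituitary pool.

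Mmp9, the other gelatinase and a neutrophil and macrophage product, had medians of 5.37 in ovary, 5.12 in hypothalamus and 4.51 in pituitary. It was higher than in pituitary by 0.75 in ovary and 0.60 in hypothalamus, and ovary minus hypothalamus did not pass.

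The membrane-type MMPs sit on the cell surface, and Mmp14, the activator of the Mmp2 precursor, was the ovarian one. Its ovary arrays ran from 9.63 to 10.45 (median 9.87), against 7.39 to 8.37 in pituitary and 7.68 to 8.13 in hypothalamus. Ovary exceeded these by 2.14 and 2.01 (SE 0.15 each). Mmp17, Mmp24 and Mmp16 had their highest levels in hypothalamus instead. Mmp17 ran from 6.37 to 7.70 there against 5.25 to 5.90 in ovary and 4.27 to 5.26 in pituitary. Mmp24, a neural membrane-type MMP, separated the 3 tissues fully, at 7.44 to 7.83 in hypothalamus, 6.11 to 6.63 in pituitary and 5.33 to 5.62 in ovary. Ovary minus hypothalamus was -2.09 for Mmp24, -1.66 for Mmp17 and -0.85 for Mmp16. Mmp25 had medians of 4.68, 4.48 and 4.76 and passed in no pair.

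Other secreted MMPs with an ovarian level were Mmp19, Mmp11 and Mmp23. Mmp19, a basement membrane protease, had 6 ovary arrays within 8.60 to 9.14 and ran from 4.74 to 6.26 in pituitary and 4.73 to 5.35 in hypothalamus. Ovary exceeded hypothalamus by 3.65, 12.5-fold, and pituitary by 3.31, 9.89-fold (SE 0.17 each), with adjusted p of 1.13e-12 and 1.33e-11 in limma. Mmp11, or stromelysin 3, ran from 7.48 to 8.71 in ovary, with both pools lowest, and was higher than hypothalamus and pituitary by 2.74 and 2.81. A second probe set of Mmp11 had a smaller gap, with means of 6.80 in ovary, 5.77 in pituitary and 5.32 in hypothalamus. Mmp23, which is a type II membrane protein before release, ran from 7.31 to 8.07 in ovary and was higher by 2.35 and 2.07. Mmp28, or epilysin, was higher in ovary than in either tissue by 0.36 and 0.52.

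The collagenases Mmp1a, Mmp1b, Mmp8 and Mmp13 did not pass between ovary and either tissue. Mmp1a and Mmp1b had log2 signals of only 1.31 to 2.68 on all arrays, so their values are uncertain. Of the stromelysins and matrilysin, Mmp3 passed in no pair and Mmp10 was higher in ovary by 0.48 and 0.46. Mmp7, matrilysin, had its highest median in pituitary (4.43 against 3.48 in ovary and 3.61 in hypothalamus), and ovary minus pituitary was -0.92. A second probe set of Mmp7, of lower signal, did not show this, with means of 2.87 in ovary, 2.79 in pituitary and 2.79 in hypothalamus. Mmp12, the macrophage elastase, was higher in ovary by 0.82 and 0.55. Mmp20, the enamel protease, and Mmp8 were lower in hypothalamus than in pituitary by differences of -0.41 and -0.47. Mmp21 and Mmp27 passed in no pair.

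The 4 inhibitors did not share 1 pattern across the tissues. Timp1 had the largest difference of the 49 genes in both ovary comparisons: its ovary arrays ran from 11.49 to 11.92, its pituitary arrays from 5.60 to 8.44 and its hypothalamus arrays from 4.44 to 7.20. Ovary exceeded hypothalamus by 6.42 (SE 0.31) and pituitary by 4.92 (SE 0.31), 30.3-fold for the latter, with adjusted p of 2.58e-12 and 2.69e-10 in limma. Timp4 was the reverse, at 8.34 to 9.31 in hypothalamus against 4.81 to 6.15 in ovary and 4.94 to 6.19 in pituitary, and in each tissue the pools were the highest arrays. Ovary lay below hypothalamus by -3.31 (SE 0.21; limma, adjusted p = 1.12e-10).

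Timp2, which both inhibits Mmp2 and helps Mmp14 to activate it, was highest in hypothalamus, at 10.57 to 11.07, with no overlap with ovary (9.67 to 10.17) or pituitary (9.25 to 10.38). Timp3, which binds to matrix, had overlapping ranges with medians of 9.13 in ovary, 8.67 in pituitary and 8.85 in hypothalamus. Ovary exceeded the others by 0.55 and 0.39, of which the difference from hypothalamus had an adjusted p of 0.0456 in limma.

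**Figure D2:**
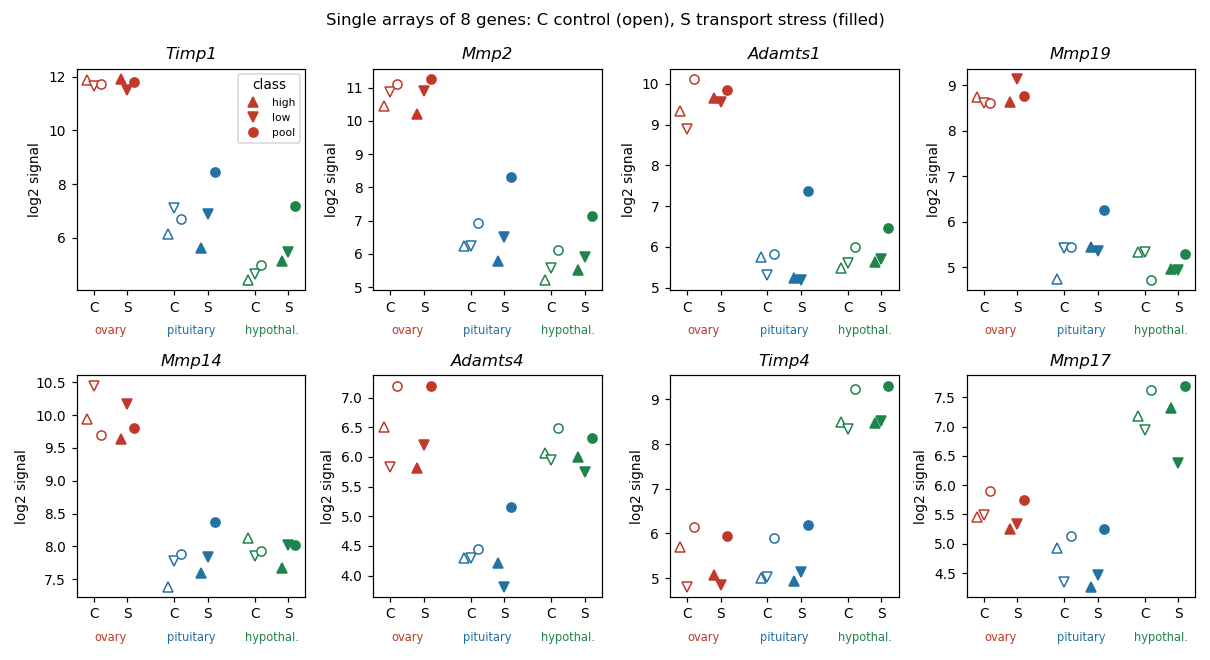
Deposited log2 signal of 8 genes on each of the 18 arrays, by tissue and treatment (C control, open; S transport stress, filled) and by class (up triangle high, down triangle low, circle pool). Timp1, Mmp2, Adamts1, Mmp19 and Mmp14 are high on all ovary arrays, the stressed pools are the highest pituitary and hypothalamus arrays for Timp1, Mmp2 and Adamts1, and Timp4 and Mmp17 are highest in hypothalamus.

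In counts, 20 members were higher and 9 lower in ovary than in hypothalamus, against 25.7% and 21.5% of all genes, so 29 of 49 passed against 47.2% of all genes (limma, adjusted p under 0.05). Against pituitary 25 were higher and 3 lower in ovary, against 21.8% and 19.2% of all genes (41% in either direction). Between hypothalamus and pituitary 12 were higher and 10 lower, against 19.6% and 19.9% of all genes (39.5% in either direction). The median difference over the 49 was 0.26 for ovary minus hypothalamus and 0.40 for ovary minus pituitary, against 0.03 and -0.01 over all genes. The 6 members with the largest passing differences in ovary were Timp1, Mmp2, Adamts1, Mmp19, Adamts9 and Mmp11 against hypothalamus and Timp1, Mmp2, Adamts1, Mmp19, Mmp11 and Adamts12 against pituitary.

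The matrix proteins that these enzymes cut, and their other regulators, are given from lists of the pathway. All 19 measured matrix substrates had higher values in ovary than in hypothalamus and than in pituitary, and 16 and 18 of them passed. Nid1 (nidogen, a basement membrane linker) was higher by 3.86 and 2.23, and Lama1 and Nid2 were higher than in hypothalamus by 3.03 and 3.16. Of 15 proteoglycans, hyaluronan synthases and link proteins, 5 were higher and 4 lower in ovary than in hypothalamus. Vcan, the versican that Adamts1 cuts, was higher in ovary by 2.80 and 3.44 against hypothalamus and pituitary, while the brain proteoglycan Bcan and the brain link protein Hapln4 lay below hypothalamus, at -3.13 and -3.12.

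Of the 7 plasminogen system genes 5 were higher in ovary than in hypothalamus, 4 than in pituitary, and 0 were lower. Plau, the urokinase activator, was higher by 4.86 and 4.85, and its receptor Plaur by 1.63 and 1.32. Of 14 ADAM, astacin and cathepsin proteases 10 were higher in ovary than in each other tissue, among them Adam17 by 2.00 and 1.63 and the procollagen C-proteinase Bmp1 by 2.17 and 2.30. Of 14 activators and other inhibitors 7 were higher and 3 lower in ovary than in hypothalamus, and 6 higher and 6 lower than in pituitary. The convertase Pcsk5 was higher by 3.03, and the brain proteoglycan inhibitors Spock1 and Spock3 were lower, at -4.02 and -4.26.

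Transport stress was compared with control within each tissue, with 3 arrays a group. In ovary 0 of the 49 members and 0 of all genes (0%) passed in limma, and at an unadjusted p under 0.05 there were 0 members against 592 genes, 2.67% of all. The lowest adjusted p of any gene was 0.9985. Timp1 read 11.86, 11.64 and 11.70 on the control high, low and pool arrays and 11.92, 11.50 and 11.80 on the stressed ones. The 2 groups overlapped, and the mean difference of 0.00 had a 95% interval of -0.42 to 0.42. Mmp2 differed by -0.01 (95% interval -0.68 to 0.66).

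Adamts1 in ovary read 9.34, 8.90 and 10.13 in control and 9.66, 9.55 and 9.86 in stress. The stressed arrays lay inside the control range, and the difference was 0.23 (95% interval -0.44 to 0.91), which became -0.04 without the control low mouse. The 6 members with the smallest unadjusted p were Adamts6 (0.45), Mmp9 (-0.38), Adamts9 (0.30), Mmp28 (-0.25), Mmp1b (0.31) and Adamts20 (-0.22). Without the stressed low mouse Mmp9 differed by -0.25 and Mmp28 by -0.12, without the control pool Mmp1b by 0.10, and without the stressed high mouse Adamts20 by -0.13. Adamts6 read 5.38, 5.55 and 5.86 in control and 6.26, 6.03 and 5.85 in stress, so the pools were level and both single-mouse differences positive. Mmp28 was the member whose groups did not overlap, at 5.05 to 5.15 in control and 4.62 to 5.01 in stress. This was 1 member of 49, against 8.77% of all genes.

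In pituitary 0 members and 0 genes (0%) passed in limma, 0 members had an unadjusted p under 0.05, against 294 genes or 1.33% of all, and the lowest adjusted p of any gene was 0.9999. The groups did not overlap for 3 members, Adamts12, Adamtsl1 and Adamts20, against 6.08% of all genes. Adamts12 read 4.89, 4.90 and 4.99 in control and 5.15, 4.99 and 6.23 in stress, a difference of 0.53 that was 0.15 without the stressed pool. The other members of smallest p were Mmp9 (0.40), Adamts6 (0.51), Mmp19 (0.48), Mmp3 (0.38) and Mmp13 (0.68). Each of these depended on single arrays. Without the stressed pool Mmp19 differed by 0.19 and Adamts6 by 0.89, and without the control high mouse Mmp19 differed by 0.25 and Mmp13 by 0.42. Without the stressed high mouse Adamts6 differed by 0.26, and without the stressed low mouse Mmp9 differed by 0.25, Mmp3 by 0.19 and Mmp13 by 0.08.

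The stressed pituitary pool is the array with the raised ovary markers, and Timp1, Mmp2 and Adamts1 were highest there. So were Adamts3, Adamts5, Adamts9, Adamts12, Adamts19, Mmp11, Mmp14 and Mmp19. The rest of the 15 members with all ovary arrays above all others were highest on another pituitary array. Adamts10, Adamts7 and Mmp23 read highest on the control pituitary pool, and Adamts14 in the stressed low mouse. On the stressed pool Timp1 read 8.44, Mmp2 8.31 and Adamts1 7.38, against highest values of 7.10, 6.93 and 5.83 on the other 5 pituitary arrays. Stress minus control in pituitary was 0.33, 0.41 and 0.30 for these genes and became -0.38, -0.08 and -0.32 without the pool arrays. Without the stressed pool alone it was -0.40, -0.31 and -0.42. Of the 14 ovary markers 13 had higher values with stress in pituitary. Glia markers were raised on the stressed pituitary pool too, and the hypothalamus-high Timp4 (6.19) and Mmp17 (5.26) also had their highest pituitary values there. The part of ovarian, glial or hypothalamic RNA in the members' values was not tested.

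In hypothalamus 0 members and 0 genes (0%) passed in limma, with a lowest adjusted p of 1. At an unadjusted p under 0.05 there was 1 member, Timp1, against 245 genes, 1.1% of all. Timp1 read 4.44, 4.66 and 4.98 on the control high, low and pool arrays and 5.15, 5.47 and 7.20 on the stressed arrays. All stressed arrays lay above all control arrays, and the stressed pool stood furthest above. The differences within class were 0.71 for high, 0.81 for low and 2.22 for pool mice. The mean difference was 1.25 (95% interval 0.19 to 2.31, unadjusted p = 0.0261 in limma), 0.76 without the pool arrays and 0.62 without the stressed pool. That pool carried ovary markers at 2351 as a sum against 391 to 499, and 13 of 14 ovary markers had higher values with stress. The part of this in the Timp1 difference was not tested.

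**Figure D3:**
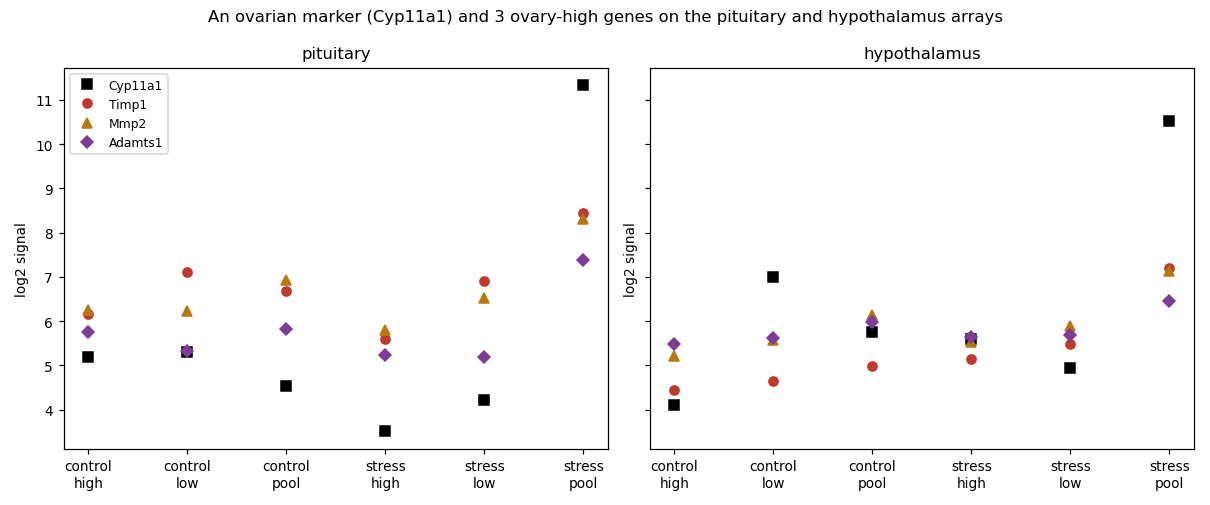
Deposited log2 signal of Cyp11a1, the ovarian side-chain cleavage enzyme, and of Timp1, Mmp2 and Adamts1 on the 6 pituitary and the 6 hypothalamus arrays. Cyp11a1 reads 11.3 and 10.5 on the stressed pools and at most 6.99 elsewhere, and the 3 other genes are highest on the same pools.

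Of the 49 members 6 had hypothalamus groups without overlap, against 4.54% of all genes: Timp1 and Adamts19 above control, and Adamts8, Adamts15, Adamtsl2 and Mmp25 below it. The differences of smallest p after Timp1 were Adamts19 (0.41), Mmp13 (0.83), Adamts8 (-0.27), Adamts15 (-0.24) and Mmp2 (0.55). Adamts19 read 4.18, 4.38 and 4.18 in control and 4.39, 4.85 and 4.72 in stress, so its lowest stressed array was just above its highest control array. Adamts1 differed by 0.24, and by -0.03 without the stressed pool, where Mmp2 differed by 0.07. Mmp13 differed by 0.27 without the stressed low mouse. The plot of stress differences gives all 49 genes in each tissue.

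**Figure D4:**
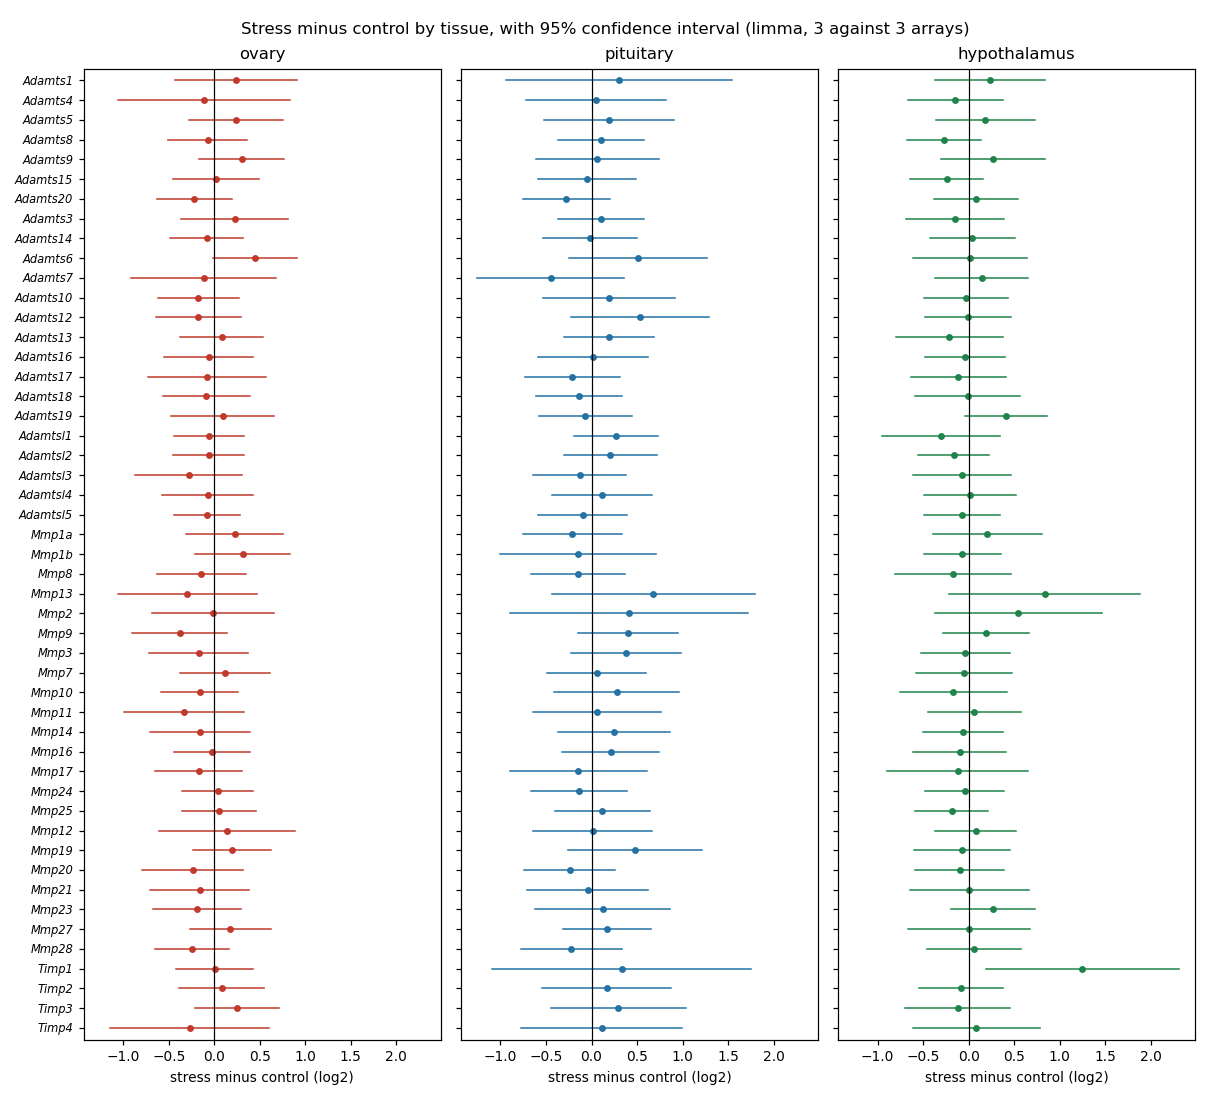
Stress minus control on the log2 scale for the 49 genes in each tissue, with the 95% confidence interval from limma (3 against 3 arrays). All intervals include 0 except that of Timp1 in hypothalamus (0.19 to 2.31), which did not pass after adjustment over all genes.

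Tests of whether the stress effect differed between tissues called 0 members and 0 genes in each of the 3 pairs (0% each). Unadjusted p under 0.05 was reached by 0, 1 and 0 members for ovary against hypothalamus, ovary against pituitary and hypothalamus against pituitary, against 2.24%, 3.63% and 3.49% of all genes. The 1 member was Mmp9, whose stress effect in ovary minus that in pituitary was -0.78 (limma, unadjusted p = 0.0107, adjusted p = 0.9999). Mmp9 read 5.34, 5.40 and 5.53 in control ovary and 4.84, 4.77 and 5.52 in stressed ovary. In pituitary it read 4.05, 4.29 and 4.51 in control and 4.57, 4.98 and 4.50 in stress, so the single stressed mice read lower in ovary and higher in pituitary, and the pools were level. Mmp13 in ovary against hypothalamus (-1.13), Adamts12 in ovary against pituitary (-0.71) and Adamtsl1 in hypothalamus against pituitary (-0.58) had unadjusted p of 0.0547, 0.0505 and 0.056 in limma.

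The high and low ovulating mice were compared with treatment in the model, 2 mice a class. In ovary 0 members and 0 genes (0%) passed in limma, 7 members had an unadjusted p under 0.05, against 10.7% of all genes, and the lowest adjusted p of any gene was 0.408. The direction was lower in the high mice for 6 of these 7, which were picked by their p. Over all 49 members 28 had lower and 21 higher values, with a median difference of -0.10 against -0.0027 over all genes. Mmp12 read 3.62 and 3.63 in the control and stressed high mice and 4.64 and 4.42 in the low mice, a difference of -0.91 (SE 0.23). Mmp13 read 3.97 and 4.004 in the high mice and 5.16 and 4.46 in the low mice (-0.82, SE 0.21). Neither gene's high mice overlapped its low mice, and for Mmp12 the control pool (3.54) lay with the high mice.

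Mmp2 and its activator Mmp14 read lower in both high mice too. Mmp2 read 10.44 and 10.20 in the high mice and 10.87 and 10.89 in the low mice (-0.56, SE 0.17), but both pools, at 11.09 and 11.27, were above all 4 single mice. Mmp14 read 9.93 and 9.63 in the high mice and 10.45 and 10.17 in the low mice (-0.53, SE 0.18). Timp2 read 9.74 and 9.67 against 10.12 and 10.17. Adamtsl3 differed by -0.61, and Timp4 had higher values in the high mice by 0.57. Leaving out the control high mouse made Timp4 0.30, and leaving out the control low mouse made it 0.35, Adamtsl3 -0.31 and Mmp13 -0.52. Their adjusted p in limma ran from 0.408 to 0.438. The high and low mice did not overlap for 18 of the 49 members, against 35.8% of all genes, and Mmp9, Adamts1 and Timp1 differed by 0.01, 0.27 and 0.33.

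The matrix substrates had lower values in the same ovaries: this was so for 18 of the 19 measured. Their median high minus low difference was -0.46, against -0.0027 over all genes. Of the 19, 0 passed and 8 had an unadjusted p under 0.05 in limma, against 10.7% of all genes. Tnc, or tenascin C, was the one of smallest p, at -0.87. Of 11 fibroblast markers 6 had lower and 5 higher values in the high mice. The summed signal of all 11 was 9127 and 8648 in the high mice and 10516 and 11736 in the low mice. Such a sum rests mostly on the strongest signals. In control Col1a1 read 10.03 in the high and 11.03 in the low mouse, while Dcn (11.04 against 10.77), Lum (9.14 against 8.71) and Ogn (9.94 against 9.18) read higher in the high mouse. Of 12 neutrophil and macrophage markers 8 had lower values, with sums of 1601 and 1309 in the high and 1747 and 1707 in the low mice. Of 11 endothelial and mural markers 9 had lower values, with sums of 8208 and 7940 in the high and 8514 and 8518 in the low mice. The part of these cells in the differences was not tested.

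**Figure D5:**
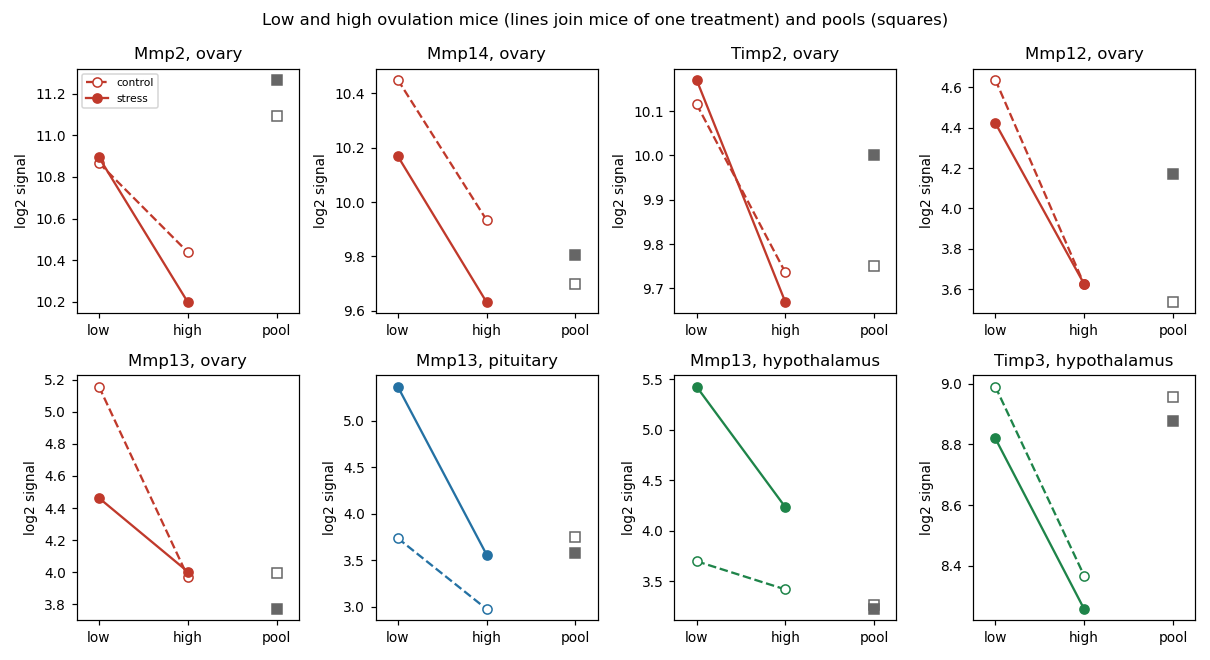
Deposited log2 signal of the low and the high mouse of each treatment (circles joined by a line; dashed and open for control, solid and filled for stress) and of the pools (squares) for 5 genes in ovary, Mmp13 in pituitary and hypothalamus, and Timp3 in hypothalamus. Only pairs in which the high mouse reads below the low mouse in both treatments were drawn, so the shared direction of the 8 panels follows from that choice. Mmp8 in hypothalamus and Timp4 in ovary, which read higher in the high mice, are not shown. Of the 49 members, 9 in ovary, 9 in pituitary and 14 in hypothalamus were higher in the high mouse in both treatments. In the same order, 19, 18 and 16 were lower in both. None of the differences shown passed after adjustment over all genes.

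In pituitary 0 members and 0 genes (0%) passed in limma for high minus low, 3 members had an unadjusted p under 0.05, against 5.23% of all genes, and the lowest adjusted p of any gene was 0.8999. The 3 were Mmp13 (-1.28), Adamts10 (-0.63) and Mmp3 (-0.54), followed by Timp3 (-0.69), Timp1 (-1.12) and Mmp7 (0.45). Timp1 read 6.16 and 5.60 in the high mice and 7.10 and 6.90 in the low mice, and leaving out the control high mouse made its difference -1.79 and leaving out the stressed high mouse -0.46. Timp3 read 7.67 and 8.63 in the high mice and 8.87 and 8.81 in the low mice, so only the control pair was far apart. Its difference was -0.19 without the control high mouse and -1.19 without the stressed high mouse. Mmp3 became -0.30 without the stressed high mouse, Mmp7 0.27 without the control high mouse, and Mmp13 -0.57 without the stressed low mouse and -2.00 without the control low mouse.

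In hypothalamus 0 members and 0 genes (0%) passed in limma and 9 members had an unadjusted p under 0.05, against 19.3% of all genes, with a lowest adjusted p of 0.135. Mmp8, the neutrophil collagenase, read 4.20 and 4.04 in the high mice and 3.45 and 3.29 in the low mice (0.75, SE 0.16). Timp3 read 8.37 and 8.26 in the high mice and 8.99 and 8.82 in the low mice (-0.59, SE 0.16). It passed when only genes at or above the median level were tested (adjusted p = 0.0454) and with a prior variance that follows the mean level (adjusted p = 0.0357), but not with all genes and a constant prior (0.153). The others of smallest p were Adamts6 (-0.59), Mmp28 (0.54), Mmp16 (-0.53) and Adamts7 (0.50). All 11 fibroblast and meningeal markers had lower values in the high mice there, with sums of 877 and 861 against 1264 and 1632 in the low mice, and the part of these cells was not tested. The high and low mice did not overlap for 17 members in pituitary and 20 in hypothalamus, against 32.8% and 49.6% of all genes.

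Mmp13, a collagenase of bone and cartilage, had 1 array well above the rest in each tissue. In hypothalamus it read 5.43 in the stressed low mouse and 3.23 to 4.24 on the other 5 arrays. In pituitary it read 5.37 in the same stressed low mouse and 2.97 to 3.75 elsewhere. In ovary the highest array was the control low mouse, at 5.16, against 3.77 to 4.46 elsewhere. Without the stressed low mouse, its stress minus control difference was 0.27 in hypothalamus and 0.08 in pituitary, against 0.83 and 0.68 with it, and its high minus low difference in pituitary was -0.57 against -1.28. Without the control low mouse, high minus low in ovary was -0.52 against -0.82. The matrix genes Col1a1, Acan, Comp and Hapln1, named after their values were seen, were each highest in their tissue on the same 3 arrays. Col1a1, the type I collagen chain, read 8.95, 9.80 and 11.03 on these hypothalamus, pituitary and ovary arrays, and Comp read 6.39, 6.34 and 6.52. Acan, the cartilage proteoglycan, read 5.95, 5.95 and 6.22, against 4.41 to 5.19 on all other arrays. Other collagen genes of the same lists were highest elsewhere. Col3a1 was highest on the stressed pools in hypothalamus (6.62) and pituitary (7.66), and in the stressed low mouse in ovary (11.13). Col1a2 was highest on the same hypothalamus and ovary arrays, but on the control pool in pituitary (9.46). The part of these matrix genes in the Mmp13 values was not tested.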

How the data were processed

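The authors deposited 1 log2 signal per transcript cluster and array, made with Transcriptome Analysis Console per the submitters' processing notes. The normalization and any background step or filter are not given in the sources used here. Per the labels, Trizol was used for extraction and 6 ug of RNA for biotin labelling. The range of values (highest 13.66) gave the log base. Of 41345 clusters 23521 name 1 gene, which gave 22180 genes, each by its cluster of highest mean (4 members had over 1). No low-value filter was applied.

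limma 3.58.1 (R 4.3.3) was used with Benjamini-Hochberg adjustment over all genes, threshold 0.05 and two-sided tests. Tissue pairs and interactions were fitted on 18 arrays with the animal or pool as a random block (correlation 0.27). Stress minus control was fitted on 6 arrays a tissue, and high minus low with class and treatment. The number of arrays limits the precision: the median SE of a stress difference was 0.21 in ovary, 0.27 in pituitary and 0.23 in hypothalamus. The code was tested on simulated data. The members, gene lists and tests were chosen with earlier results of these data known. Named with values were a set of ovulation and brain members, the 6 members of largest passing difference per direction and tissue pair, members of smallest p (6 per treatment or class comparison, 3 per interaction) and up to 3 genes per pathway list. Alternatives covered scaling, the low-value filter, clusters, prior, weights, pools, blocks and single arrays. The same class deviated together across treatments (correlations 0.359 to 0.727 in 9 pairs, against -0.521 to 0.321 in 18 pairs of different class), which the labels do not explain by shared animals. Pool with pool gave 0.66 to 0.727, and pool with single mouse -0.521 to -0.283. Single mice gave 0.359 to 0.52 in the same class and -0.05 to 0.321 in different classes, with pituitary values of 0.359 and 0.366 against 0.313 and 0.321.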

Additional observations from a re-analysis of the deposited data

Results flagged for a closer look

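For 5 pairs of tissues and genes, every class differed one way with stress in one tissue and the opposite way in the other. These came from all 49 members, each looked at in 3 pairs of tissues. The share of all genes that do this was not counted, so the 5 cannot be called more than usual. Adamts12 differed by -0.18 in ovary and 0.53 in pituitary, an interaction of -0.71 (limma, adjusted p = 0.9999). Mmp23 differed by -0.19 in ovary and 0.27 in hypothalamus, an interaction of -0.46. Timp3 differed by 0.25 in ovary and -0.12 in hypothalamus, an interaction of 0.37. Adamtsl1 differed by 0.27 in pituitary and -0.31 in hypothalamus, 0.58 apart, and Adamtsl2 by 0.21 and -0.17, 0.37 apart. The last 4 had an adjusted p of 1 in limma, so none of these differences between tissues passed.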

How the results depend on the processing

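Of 12 counts of called members, those for stress, its interactions and high minus low stayed at 0 under every alternative run, except high minus low in hypothalamus, which was 1 (Timp3) with genes at or above the median level and with the prior variance as a trend. With that level filter, which tests 21 members, 17, 17 and 11 members passed for ovary minus hypothalamus, ovary minus pituitary and hypothalamus minus pituitary. Leaving out 1 array gave 24 to 29, 25 to 29 and 18 to 22 members, the animal as a fixed replicate block gave 27, 27 and 21, no block gave 26, 25 and 18, and leaving out the pools gave 24, 24 and 19. The ovulation class as a replicate block called 0 members for stress in each tissue.

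Of 1688 alternative values of 85 named differences, 1659 kept direction and call, 19 reversed, 8 lost and 2 gained a call. A value that passed in neither fit counted as keeping its call. All reversals were of Adamts1, Mmp2 or Timp1 under stress. These genes were named in every stress comparison whatever their p, while the other stress and class values were those of smallest p. The counts therefore do not set them apart from other members, and the cause of the reversals was not tested. Ovary Timp1 became -0.01 with centred arrays, -0.03 with array weights and -0.04 without pools. Pituitary Timp1 became -0.31 with array weights and -0.38 without pools, where Adamts1 was -0.32 and Mmp2 -0.08. Leaving out 1 array gave, in ovary, -0.04 to 0.57 for Adamts1, -0.25 to 0.28 for Mmp2 and -0.09 to 0.12 for Timp1. In pituitary it gave -0.42 to 0.67, -0.31 to 0.95 and -0.40 to 1.02 for the same genes, and in hypothalamus -0.03 to 0.39 for Adamts1.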

Other observations

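Genes outside the matrix lists also differed in value between high and low mice. Of 12 interferon-induced genes all 12 had higher values in the high than in the low mice in ovary (median 0.87) and 11 in pituitary (median 0.85). In the same comparisons 1 and 5 had an unadjusted p under 0.05, against 10.7% and 5.23% of all genes, while 0 passed in limma. In both tissues all 12 read higher in the stressed high mouse than in the stressed low mouse. In control ovary only Bst2, Ifit1 and Irf7 read higher in the high than in the low mouse. In control pituitary Igtp, Iigp1, Mx1, Mx2 and Rsad2 read lower in the high mouse. For Iigp1 the high mouse read above the low mouse under stress and below it in control. In ovary it read 9.75 in the stressed high and 6.87 in the stressed low mouse, but 5.92 and 6.58 in the control high and low mice. In pituitary it read 9.20 and 6.80 under stress and 6.54 and 7.01 in control. Of 12 immediate early genes 11 had higher values in the high mice in hypothalamus (median 0.50 against 0.03 over all genes). Of these 12, 8 had an unadjusted p under 0.05 in limma, against 19.3% of all genes, and 0 passed.

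Among ovulation control genes in ovary, Ereg, an EGF receptor ligand of preovulatory granulosa cells, read 8.90, 8.03 and 8.93 on the control high, low and pool arrays and 9.20, 10.28 and 9.45 on the stressed arrays. All stressed arrays lay above all control arrays, and the difference was 1.03 (limma, unadjusted p = 0.0146). It did not pass over all genes. Sult1e1 and Edn2 were higher in the high mice by 1.33 and 1.07, and also did not pass.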
